A study of Mus musculus with 6 samples.

Results

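The cytosolic ribosomal protein genes encode the proteins that, together with the ribosomal RNAs, form the small (40S) and the large (60S) subunit of the ribosome outside mitochondria. They were taken by name from the count table, as Rpl or Rps followed by a number and at most 1 letter, or as Rplp0, Rplp1, Rplp2 and Rpsa, which gave 83 of the 56941 genes. Of these, 76 are the usual ribosomal proteins, 46 of the large and 30 of the small subunit, 5 are paralogs with their own gene (Rpl3l, Rpl10l, Rpl39l, Rps27l and Rps4l), and Rpl6l and Rpl32l are annotated as pseudogenes. The expression filter of edgeR kept 82 of the 83 genes and dropped Rpl24, and 76 had a mean normalized count of at least 100.

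Total RNA was sequenced from hair follicle stem cells (HFSCs), sorted by FACS with antibodies to CD34 and α6-integrin from dorsal skin of female mice at postnatal day (PD) 68, with 3 biological replicates for each of the labels WT and Dab2-cKO. Mice of both groups had the strain label B6;129S4-Dab2tm1Cpr/J, were Dab2fl/fl and received tamoxifen at 75 mg per kg of body weight on 5 consecutive days, while only the Dab2-cKO mice carried Cre recombinase, under the K14 promoter, which is active in keratinocytes of the basal layer and the outer root sheath and not in dermal cells. The libraries were made from 5 ng of total RNA with a stranded total RNA kit and held 7040032 to 11696457 counts. A normalized count below is a count divided by the effective library size after TMM scaling and multiplied by the mean of these sizes.

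The targeted gene went against the labels. Its normalized counts, in replicates 1, 2 and 3, were 338, 332 and 309 for Dab2 under the label WT and 1434, 1300 and 1390 under the label Dab2-cKO, a log2 fold change of 2.08 (standard error, SE, 0.08, and adjusted p = 3.04e-34 by edgeR). Whether these transcripts held the floxed exon cannot be read from gene-level counts. The count table names the Dab2-cKO libraries for their floxed alleles, so every direction below is that of the libraries labelled Dab2-cKO over the libraries labelled WT and depends on this assignment. The sort markers were present in all 6 libraries, with Cd34 at 455 to 562 and 1755 to 1820 normalized counts and Itga6 at 928 to 1007 and 1377 to 1464, in the order WT and Dab2-cKO.

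As background, most ribosomal proteins, though not all, are made in equal numbers for each ribosome, although their mRNAs differ in length and level. Most of their mRNAs begin at a C followed by a run of pyrimidines, the 5′ terminal oligopyrimidine (TOP) motif, through which mTOR signalling and the protein Larp1 set their translation. The level of a ribosomal protein mRNA therefore does not measure its protein output. In skin, partial loss of single ribosomal proteins is known from mouse mutants, such as the dark skin mice with mutations of Rps19 and Rps20, in which pigment cells accumulate in the epidermis.

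The start sites of these genes are shown first, to set members that start with C and a run of pyrimidines beside members that do not. RefSeq's promoter sequences (build GRCm38.p6), of 300 bases each, were found for 61 of the 83 genes, and each printed window, 30 bases on the sense strand with the annotated start at the base after the 15th, was located by an exact match to GRCm39. In the first 4 windows capitals mark the run of C and T at the start.
Rplp2, chr7:141027549-141027578, plus strand: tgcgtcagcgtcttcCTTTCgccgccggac
Rps6, chr4:86775590-86775619, minus strand: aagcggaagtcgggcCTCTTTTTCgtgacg
Rps27, chr3:90120941-90120970, minus strand: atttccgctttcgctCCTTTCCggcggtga
Rpl38, chr11:114559391-114559420, plus strand: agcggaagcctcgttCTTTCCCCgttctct
The next windows belong to Rplp0, Rps24 and Rpl26, which are called in the same direction under every scaling compared, and have no C at the annotated base. Rps24 has a run of C and T there that begins with T, so it is not counted as a pyrimidine start below. Capitals in Rpl26 mark CCGGAAG, the core of the sites bound by ETS factors, which is common in promoters of housekeeping genes.
Rplp0, chr5:115697511-115697540, plus strand: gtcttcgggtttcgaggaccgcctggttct
Rps24, chr14:24540731-24540760, plus strand: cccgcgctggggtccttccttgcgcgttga
Rpl26, chr11:68792377-68792406, plus strand: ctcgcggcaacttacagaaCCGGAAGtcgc

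A C at the annotated start followed by at least 4 bases that are C or T was present in 14 of the 61 genes (23.0%) and in 3.01% of all 27025 genes of the table. CCGGAAG on either strand of the 300 bases was present in 25 of the 61 (41.0%) and in 9.93% of all genes. The response was close with and without either sequence. The median log2 fold change was 0.20 over the 14 tested members with the pyrimidine start and 0.24 over the 46 without it, and 0.24 over the 25 with CCGGAAG against 0.21 over the 35 without. These letters at an annotated start are a description, since a start annotated a few bases away hides the motif.

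Under TMM scaling, 50 of the 82 members tested were higher under the label Dab2-cKO, 2 were lower and 30 did not pass the test (edgeR's quasi-likelihood test, adjusted p under 0.05 over 32149 genes), whereas under scaling by library size alone 6 were higher and 51 lower. Over all genes tested, 16.8% were called higher and 11.5% lower under TMM, and 8.35% and 34.7% under library size alone. The median log2 fold change of the members was 0.22 under TMM, beside -0.02 over all genes. Both lower members, Rpl26 and Rpl13a, belong to the large subunit. Of the large subunit's usual proteins, 26 were higher and 2 lower of 45 tested (median 0.21), and of the small subunit's, 22 were higher and 0 lower of 30 (median 0.26), with 0 lower at an unadjusted p under 0.05 and by DESeq2. By test against a change of at least 1.5-fold, 2 members were called higher, Rplp0 and Rpl3l, and 0 lower, beside 6.91% and 3.53% of all genes, so most changes were small, and 0 members were lower at an unadjusted p under 0.05 of that edgeR test. With the 2 sets of 3 normalized counts side by side, 56 members had no overlap with Dab2-cKO above and 4 with Dab2-cKO below, beside 20.6% and 17.7% of all genes tested.

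The usual large subunit genes that did not pass the test included Rpl3, Rpl4, Rpl5, Rpl6, Rpl7, Rpl7a, Rpl8, Rpl10a, Rpl11, Rpl14, Rpl15, Rpl18, Rpl21, Rpl27, Rpl29 and Rpl30, with log2 fold changes from -0.10 for Rpl3 to 0.17 for Rpl5 under TMM. The usual small subunit genes that did not pass were Rps2, Rps6, Rps9, Rps10, Rps15, Rps18, Rps26 and Rpsa, from -0.38 for Rps10 to 0.18 for Rps15. These differences lie beside the smallest changes that were called, 0.18 for Rpl23 and 0.19 for Rps4x, so passing the test did not split the family into separate groups. Of the 7 members that averaged fewer than 100 normalized counts (Rpl24, Rps10, Rpl6l, Rpl10l, Rpl32l, Rpl39l and Rps4l), 6 were tested and 0 passed, with log2 fold changes from -0.45 to 0.65. By edgeR 0 of these 6 had an unadjusted p under 0.05, and DESeq2 called 0.

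**Figure D1:**
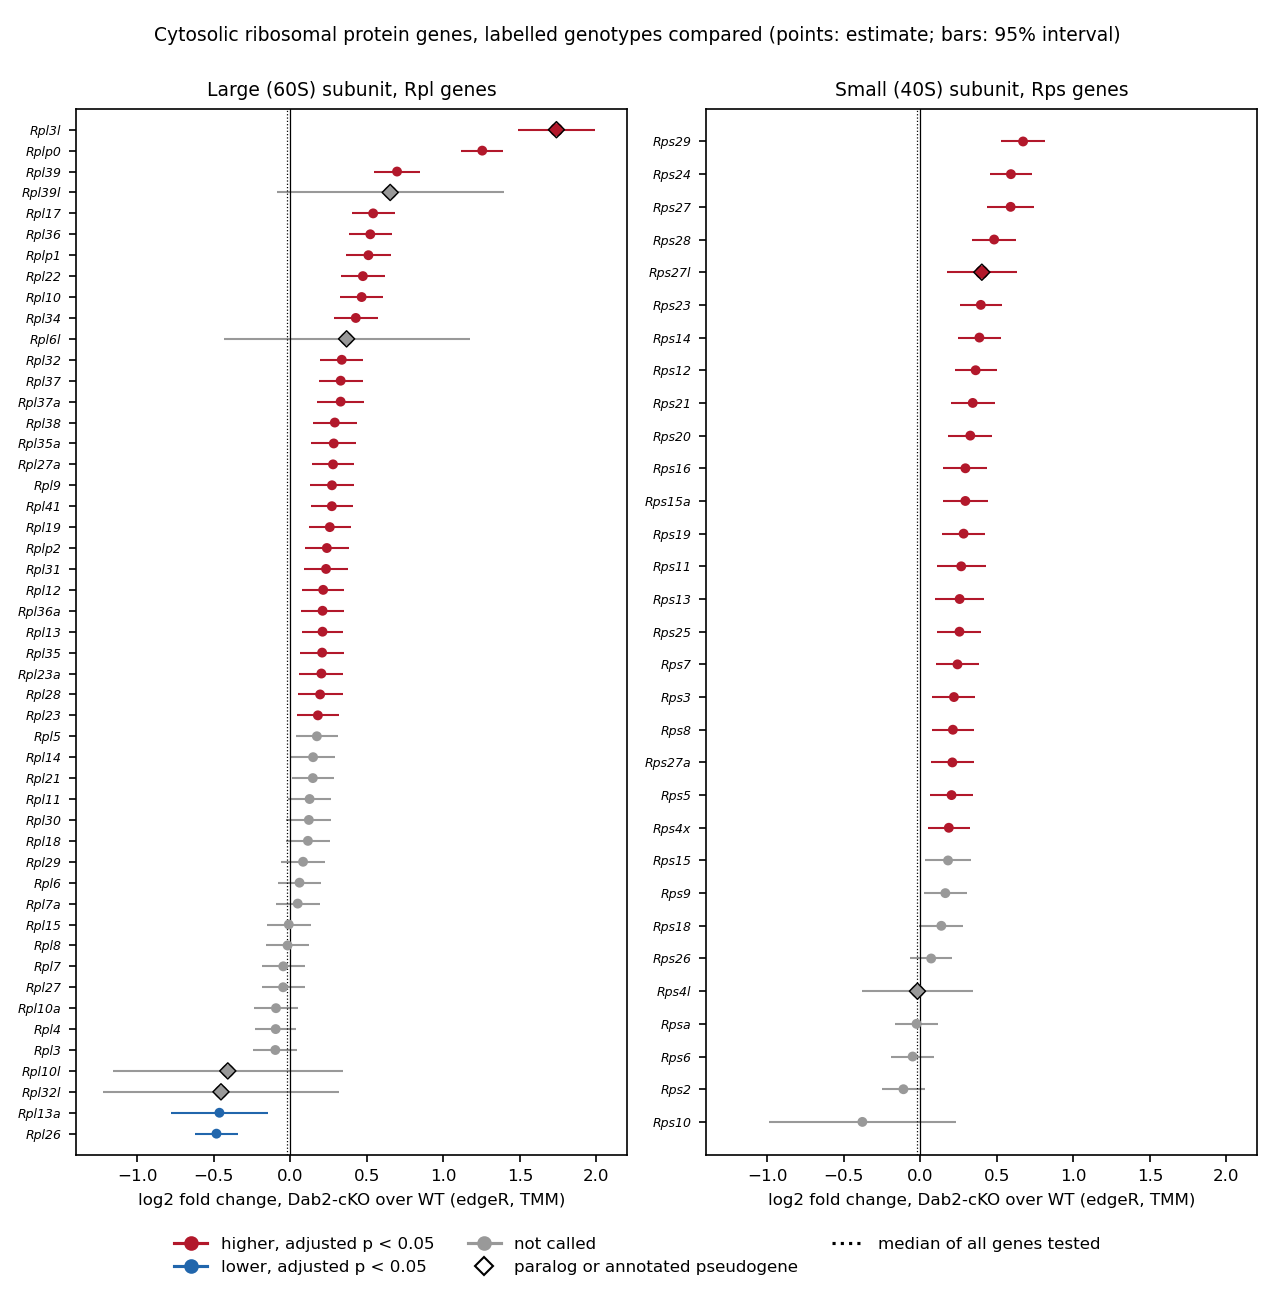
Log2 ratio of Dab2-cKO to WT (x axis, edgeR with TMM) for the members tested, apart from 2 that are not reported here, large subunit on the left and small subunit on the right. Points are estimates and bars 95% intervals, red marks higher and blue lower members at adjusted p under 0.05 under TMM (50 and 2 of the 82 tested), where scaling by library size alone gives 6 higher and 51 lower. Rpl3l and Rplp0 stand above the rest. Rpl26 and Rpl13a are the lowest, next to members of low count that were not called and reach -0.45.

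How many members counted as higher depended on the scaling of the libraries. The counts on the 83 genes took 2.23%, 2.36% and 2.36% of the total in the WT libraries and 1.96%, 2.08% and 1.98% in the Dab2-cKO libraries, so their plain share was lower in each Dab2-cKO library. Annotated rRNA genes held 15.3% to 17.0% of the total in WT and 22.3% to 24.2% in Dab2-cKO, and with the counts on rRNA and mitochondrial genes left out the share of the ribosomal protein genes was 2.72%, 2.85% and 2.82% against 2.56%, 2.74% and 2.66%, which overlapped. After TMM scaling the sum over the 83 genes was 174906, 201936 and 191986 normalized counts in the WT libraries and 218681, 224775 and 217194 in the Dab2-cKO libraries. In these bulk libraries, fewer cells of a type and less RNA per cell cannot be told apart.

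Upper-quartile scaling gave 24 members higher and 12 lower, beside 13.3% and 17.3% of all genes. TMM factors from protein-coding genes alone gave 37 and 6, beside 14.8% and 14.6%, and DESeq2 gave 46 and 1 of the 82 members with an adjusted p, beside 16.0% and 9.79% of the genes. The median of the members moved with the median of all genes. It was 0.22 under TMM, 0.07 under upper-quartile scaling and -0.21 under library size. The median of all genes was -0.02, -0.17 and -0.45 in the same order. The distance of 0.24 between the medians in each of these 3 scalings was fixed in advance, since they shift all genes nearly alike. It was 0.15 when genes needed a mean count of 50 and 0.09 with coding-length offsets. Across the 9 scaling settings compared, 6 members were called higher in all (Rpl3l, Rplp0, Rpl39, Rps29, Rps24 and Rps27), 1 was called lower in all (Rpl26), and 23 were called in both directions depending on the setting. The 7.32% and 1.22% of tested members called alike in all 9 settings stand beside 8.27% and 8.9% of all genes.

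**Figure D2:**
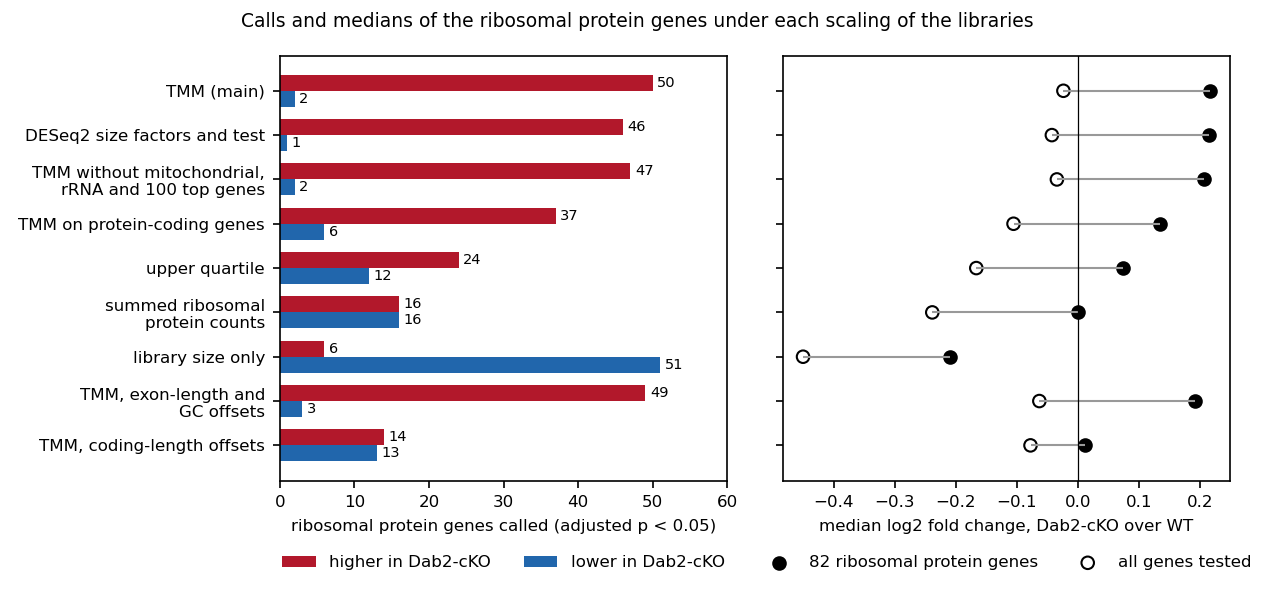
Left, the number of ribosomal protein genes called higher (red) and lower (blue) in Dab2-cKO at adjusted p under 0.05 under 9 settings, which differ in how the libraries were scaled. Right, the median log2 fold change of the 82 members (filled) and of all genes tested (open). The direction of most calls turns between TMM (50 higher, 2 lower) and library size alone (6 higher, 51 lower), and the distance between the medians is 0.24 under TMM, upper-quartile scaling and library size, 0.26 by DESeq2 and 0.09 with coding-length offsets.

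A comparison inside the group does not depend on library scaling. With the summed counts on the 83 genes as the library size, 16 members were higher and 16 lower than the group's common level (edgeR's quasi-likelihood test), beside 11.6% and 20.1% of all genes. Scaling to the members' own sum makes their deviations nearly cancel, so some had to lie above and others below the common level. That calls fell in both directions is therefore not read as a result. The count of lower members is near the share over all genes and is not read as a trait of the group. Many of the named genes below are given with this value relative to the group as well.

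The stalk of the large subunit, which recruits the translation factors that hydrolyse GTP, held the largest change among the usual ribosomal proteins. Rplp0 (ENSMUSG00000067274, GRCm39 chr5:115694515-115701793), the scaffold on which the other stalk proteins dimerise, had 2254, 2449 and 2514 normalized counts in the WT libraries and 5731, 5789 and 5698 in the Dab2-cKO libraries. The 2 groups were far apart, and each group was narrow. Its fold change was 2.39 (log2 1.25, standard error 0.07, edgeR's adjusted p = 1.53e-25), and relative to the group it was 1.04 on the log2 scale (edgeR's adjusted p = 1.09e-37). Rplp0 made up 1.29%, 1.21% and 1.31% of all ribosomal protein counts in the WT libraries and 2.62%, 2.58% and 2.62% in the Dab2-cKO libraries. Its log2 fold change was 0.83 under library size alone and 1.21 to 1.29 with each library left out in turn. The opposite-strand gene Gm73188 overlaps 43.7% of its canonical transcript in the GENCODE annotation and has no row in the count table, and the strand setting of the counting is not given in the sources used here, so reads from that strand cannot be told apart.

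The other stalk genes moved less. Rplp1 (ENSMUSG00000007892), an acidic protein that forms the tip of the stalk with Rplp2, had 4892, 6552 and 5447 normalized counts in the WT libraries and 8171, 7793 and 8101 in the Dab2-cKO libraries, without overlap. Its log2 fold change was 0.51 (SE 0.07, adjusted p = 1.89e-08 by edgeR) and 0.30 relative to the group (edgeR's adjusted p = 3.21e-08), and under library size alone 0.09 (edgeR's adjusted p = 0.163). Rplp2 (ENSMUSG00000025508), its partner, had 3801, 4856 and 4385 in the WT libraries and 5149, 5109 and 5134 in the Dab2-cKO libraries. The WT libraries of Rplp2 spread widely below a narrow Dab2-cKO group, with a log2 fold change of 0.24 (edgeR's adjusted p = 0.00647) that turned to -0.19 under library size alone and to -0.02 with coding-length offsets. Rpl12 (ENSMUSG00000038900), which binds rRNA at the base of the stalk, had a log2 fold change of 0.21 (edgeR's adjusted p = 0.0116), which turned to -0.21 under library size alone and lost the call without Dab2-cKO replicate 2 (0.17, edgeR's adjusted p = 0.0802). Although Rplp0 binds the P1 and P2 proteins in a fixed complex, the ratio of Rplp0 to Rplp1 counts went from 0.461, 0.374 and 0.461 in the WT libraries to 0.701, 0.743 and 0.703 in the Dab2-cKO libraries. The ratio of Rplp2 to Rplp1 counts went the other way, from 0.777, 0.741 and 0.805 to 0.630, 0.656 and 0.634. These ratios within a library need no scaling, and neither set overlapped.

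**Figure D3:**
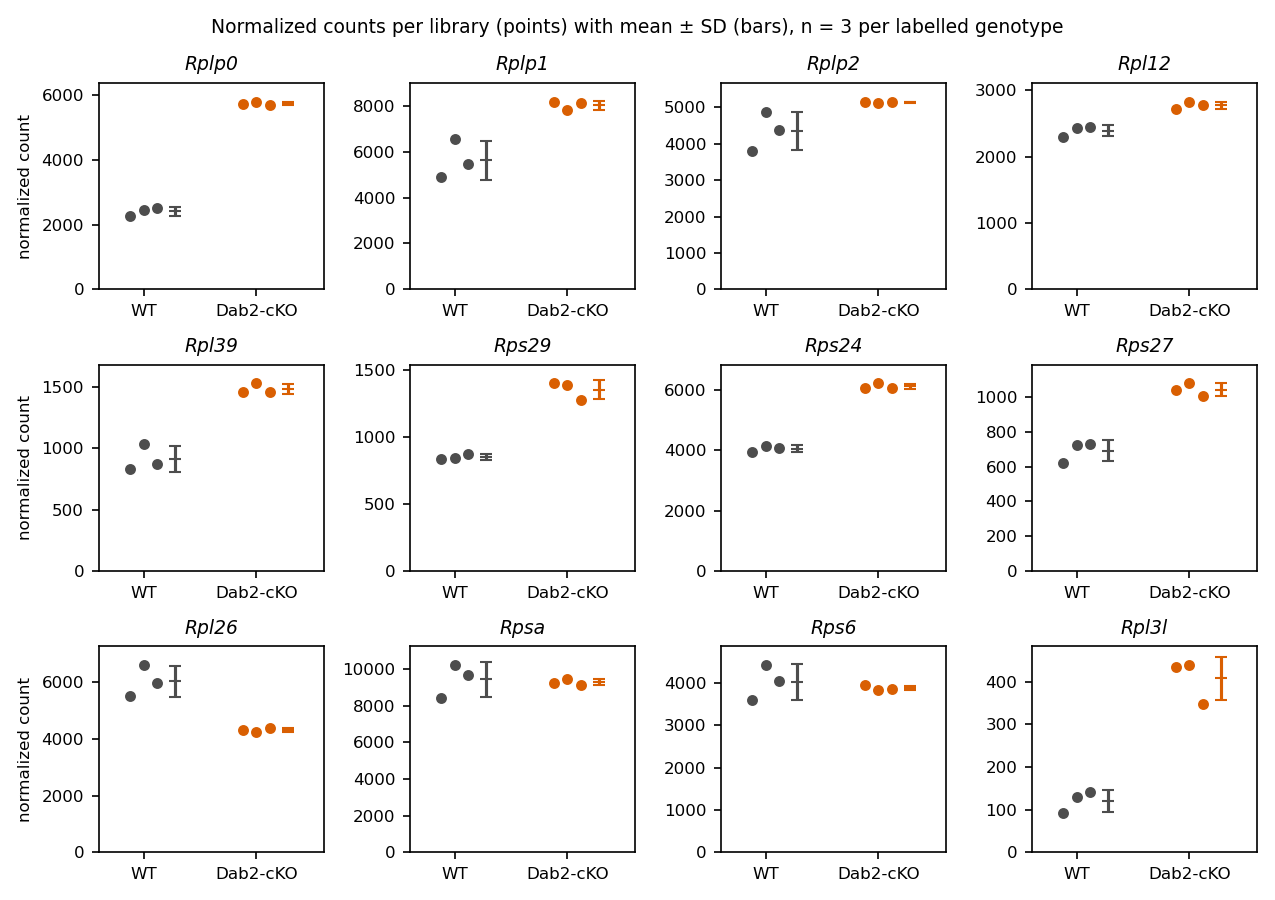
Normalized counts (y axes from 0) of 12 ribosomal protein genes in the 3 libraries labelled WT (grey) and the 3 labelled Dab2-cKO (orange), with points for libraries and bars for the mean ± SD. Under this TMM scaling Rplp0, Rplp1, Rpl39, Rps29, Rps24, Rps27 and Rpl3l sit higher in all 3 Dab2-cKO libraries and Rpl26 lower, while Rpsa and Rps6 overlap; under library size alone Rplp2 and Rpl12 turn lower.

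Rpl26 (ENSMUSG00000060938, GRCm39 chr11:68792344-68797822), a protein beside the exit of the peptide tunnel, went the opposite way. It had 5523, 6622 and 5967 normalized counts in the WT libraries and 4319, 4237 and 4408 in the Dab2-cKO libraries, so every Dab2-cKO library was below every WT library. The log2 fold change was -0.48 (SE 0.07, adjusted p = 2.22e-08 by edgeR), and relative to the group -0.70 (edgeR's adjusted p = 2.69e-26). With each library left out in turn it lay between -0.54 and -0.40. Rpl26 made up 3.16%, 3.28% and 3.11% of the ribosomal protein counts in the WT libraries and 1.97%, 1.88% and 2.03% in the Dab2-cKO libraries. The ratio of Rplp0 to Rpl26 counts was 0.400 ± 0.0267 (SD, n = 3) in the WT libraries and 1.33 ± 0.0369 (SD, n = 3) in the Dab2-cKO libraries. No annotated exon of another gene overlaps the canonical transcript of Rpl26, and the 6 pseudogenes named for it held 0.953% of its own counts.

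Of the 10 members that line or surround the exit of the peptide tunnel, 8 were higher, 1 (Rpl26) was lower and 1 (Rpl4) did not pass the test under TMM. Under library size alone 1 was higher and 6 were lower. All genes stood at 16.8% higher and 11.5% lower under TMM, and at 8.35% and 34.7% under library size alone. The median log2 fold change of the 10 was 0.25 under TMM, close to the 0.22 of all members. Rpl39 (ENSMUSG00000079641), a very short protein in the wall of the tunnel, had 832, 1035 and 877 normalized counts in the WT libraries and 1458, 1533 and 1462 in the Dab2-cKO libraries. The groups did not overlap, and Rpl39 had the second largest log2 fold change among the usual ribosomal proteins, 0.70 (SE 0.07, adjusted p = 1.68e-12 by edgeR), and 0.48 relative to the group (edgeR's adjusted p = 1.97e-11). Under library size alone it was 0.27 and still called (edgeR's adjusted p = 9.94e-05).

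Rpl5 and Rpl11 form the 5S particle with 5S rRNA, both as part of the large subunit and, when ribosome assembly stalls, as an inhibitor of Mdm2 that frees p53. Neither passed the test under TMM. Rpl5 (ENSMUSG00000058558) had 6080, 7338 and 6650 normalized counts in the WT libraries and 7594, 7656 and 7385 in the Dab2-cKO libraries, a log2 fold change of 0.17 (edgeR's adjusted p = 0.051). Rpl5 was called without WT replicate 2 (0.25, edgeR's adjusted p = 0.000191), and under library size alone its log2 fold change was -0.25. Rpl11 (ENSMUSG00000059291) had a log2 fold change of 0.13 (95% interval -0.01 to 0.27, edgeR's adjusted p = 0.198), and its groups overlapped at 1857 to 2002 and 2001 to 2213 normalized counts. Dipk1a on the opposite strand overlaps 66.1% of the canonical transcript of Rpl5 and had 74 to 143 counts per library.

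In the small subunit the largest changes were in Rps29, Rps24 and Rps27. Rps29 (ENSMUSG00000034892), a zinc-binding protein in the head of the subunit, had 834, 840 and 876 normalized counts in the WT libraries and 1401, 1388 and 1273 in the Dab2-cKO libraries. Its log2 fold change was 0.67 (SE 0.07, adjusted p = 2.41e-12 by edgeR), and relative to the group 0.45 (edgeR's adjusted p = 8.06e-10). Rps24 (ENSMUSG00000025290), needed for processing of the 18S rRNA precursor, had 3935, 4158 and 4082 in the WT libraries and 6077, 6225 and 6053 in the Dab2-cKO libraries. Rps24 changed by 0.59 on the log2 scale (SE 0.07, adjusted p = 1.49e-11 by edgeR), and by 0.37 relative to the group (edgeR's adjusted p = 1.91e-11). Rps27 (ENSMUSG00000090733), another zinc-binding protein, had 624, 722 and 730 in the WT libraries and 1043, 1080 and 1007 in the Dab2-cKO libraries, a log2 fold change of 0.59 (SE 0.08, adjusted p = 1.05e-09 by edgeR). All 3 were higher without overlap and remained called under library size alone, at 0.24, 0.16 and 0.16.

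Other small subunit genes did not share this. Rpsa (ENSMUSG00000032518), which is also known as a laminin receptor and had the highest mean count of all members in WT, had 8400, 10222 and 9653 normalized counts in the WT libraries and 9209, 9458 and 9130 in the Dab2-cKO libraries. Rps6 (ENSMUSG00000028495), the substrate of S6 kinase, had 3583, 4425 and 4042 in the WT libraries and 3939, 3841 and 3861 in the Dab2-cKO libraries. The groups of both genes overlapped, and their log2 fold changes were -0.02 (95% interval -0.16 to 0.11, edgeR's adjusted p = 0.856) and -0.05 (-0.19 to 0.09, edgeR's adjusted p = 0.689). Relative to the group they were lower, by -0.24 (edgeR's adjusted p = 5.7e-07) and -0.26 (edgeR's adjusted p = 2.73e-06). Rps27a (ENSMUSG00000020460), made as a fusion with ubiquitin, had a log2 fold change of 0.21 (edgeR's adjusted p = 0.0166) that turned to -0.22 under library size alone and lost the call without Dab2-cKO replicate 1 (edgeR's adjusted p = 0.06) or replicate 2 (edgeR's adjusted p = 0.129). Mtif2 on the opposite strand overlaps 63.3% of its canonical transcript and had 257 to 399 counts per library.

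The genes Rps19, Rps20, Rpl38, Rpl27a and Rpl24 are known from mouse mutants with traits of skin, pigment or skeleton: dark skin for Rps19 and Rps20, tail short for Rpl38, sooty foot ataxia for Rpl27a, and belly spot and tail for Rpl24. Rps20 (ENSMUSG00000028234) had 1825, 2098 and 2047 normalized counts in the WT libraries and 2464, 2683 and 2344 in the Dab2-cKO libraries, and Rps19 (ENSMUSG00000040952) had 1663, 1889 and 1797 against 2093, 2279 and 2139. Under TMM both were higher without overlap, by 0.33 and 0.28 on the log2 scale (edgeR's adjusted p = 0.00014 and 0.00085), and under library size alone they turned to -0.10 and -0.14. Rpl38 (ENSMUSG00000057322) and Rpl27a (ENSMUSG00000046364) were higher by 0.29 and 0.28 under TMM (edgeR's adjusted p = 0.000745 and 0.000997) and turned to -0.14 and -0.15 under library size alone. None of these 4 differed from the group when scaled to its sum, with edgeR's adjusted p between 0.108 and 0.417.

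Rpl24 (ENSMUSG00000098274), the remaining gene of these mutants, had 12.2, 4.51 and 11.1 normalized counts in the WT libraries and 3.81, 9.21 and 3.31 in the Dab2-cKO libraries and was not tested, although ribosomes of other tissues contain its protein. Gm28037, annotated on the same strand, overlaps 71.5% of its canonical transcript and had 0 counts in every library. The same combination was seen in other members. Rps10 (ENSMUSG00000052146) had 16.2 to 42.7 normalized counts per library, and Gm49804, with 0 counts in every library, overlaps 53.6% of its transcript on the same strand. Rpl13a (ENSMUSG00000074129), which is often used as a reference gene, had 139, 139 and 120 in the WT libraries and 97.3, 97.8 and 92.7 in the Dab2-cKO libraries, and Gm45713, with 0 counts in every library, overlaps 59.3% of its transcript. Rpl13a was lower by -0.46 on the log2 scale (SE 0.16, adjusted p = 0.0206 by edgeR) and lost the call without WT replicate 1 or 2 (edgeR's adjusted p = 0.0741 and 0.091). How reads in the shared exons were counted is not given in the sources used here, so the low levels of these 3 genes and the change of Rpl13a are uncertain.

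Some of the paralogs differ from their parents in tissue. Rpl3l (ENSMUSG00000002500) replaces Rpl3 in the ribosomes of skeletal muscle and heart. It had 91.3, 129 and 142 normalized counts in the WT libraries and 434, 440 and 349 in the Dab2-cKO libraries, a log2 fold change of 1.74 (SE 0.13, adjusted p = 8.23e-20 by edgeR), the largest of all 82 members under TMM. Its parent Rpl3 (ENSMUSG00000060036) had 2363, 2855 and 2752 in the WT libraries and 2449, 2584 and 2417 in the Dab2-cKO libraries, with overlapping groups and a log2 fold change of -0.10 (edgeR's adjusted p = 0.365). Rpl3 was called lower without WT replicate 1 (-0.17, edgeR's adjusted p = 0.0269) and relative to the group (-0.31, edgeR's adjusted p = 2.41e-07). Of the markers of skeletal muscle (Acta1, Ckm, Myh1 and Myh4), 4 of 4 were higher in Dab2-cKO, by 1.89 to 2.65 on the log2 scale, and none was at 0 in any library. Summed, they gave 20272 to 23584 normalized counts in WT and 110262 to 112163 in Dab2-cKO, and their part in the result on Rpl3l was not tested.

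Rps27l (ENSMUSG00000036781), a paralog of Rps27 known as a target of p53, had 238, 203 and 208 normalized counts in the WT libraries and 298, 246 and 311 in the Dab2-cKO libraries. The log2 fold change was 0.40 (SE 0.12, adjusted p = 0.00436 by edgeR), it turned to -0.03 under library size alone, and without Dab2-cKO replicate 3 the call was lost (edgeR's adjusted p = 0.0675). The log2 fold change of Rps4x, the X-linked small subunit protein, was 0.19 under TMM (edgeR's adjusted p = 0.0345) and turned to -0.24 under library size alone. Its call was lost without WT replicate 3, Dab2-cKO replicate 1 or Dab2-cKO replicate 2 (edgeR's adjusted p = 0.0828, 0.13 and 0.218). Its retrotransposed paralog Rps4l stood at 66.8 to 108 and 85.8 to 94.9 normalized counts, with a log2 fold change of -0.02 (95% interval -0.38 to 0.35). Rpl10, at the core of the large subunit, was higher by 0.47 (edgeR's adjusted p = 5.54e-08) and by 0.24 relative to the group (edgeR's adjusted p = 0.000147), while under library size alone it had 0.04 and did not pass (edgeR's adjusted p = 0.624). Rpl10l and Rpl39l, the forms known from testis, stayed between 13.4 and 35.7 normalized counts in each library and did not pass the test.

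The response of the members went with their coding length, taken from the canonical transcript in the GENCODE annotation. Whether that transcript encodes the usual ribosomal protein was not checked for each gene. Over the 74 usual ribosomal protein genes whose normalized counts averaged 100 or more, Spearman's rho between coding length and log2 fold change was -0.55, beside -0.16 over 10530 protein-coding genes at that level and -0.03 over the 3872 of them that are no members and not longer than the longest member. With coding-length offsets it was still -0.33 over the members. Over the length of the whole canonical transcript it was -0.18 and over GC content -0.14, and the genes share their libraries. Of the 25 members with the shortest coding sequence (138 to 408 bases), 22 were higher and 0 lower under TMM (also 0 lower at an unadjusted p under 0.05 and by DESeq2), with a median log2 fold change of 0.29. Of the 25 with the longest (582 to 1257 bases), 10 were higher and 1 lower, with a median of 0.15, beside 16.8% and 11.5% of all genes. Under library size alone the direction turned, with 3 higher and 10 lower of the shortest (median -0.13). Of the longest, 1 was higher and 23 lower there (median -0.28), beside 8.35% and 34.7% of all genes. Other protein-coding genes of the shortest, middle (411 to 576 bases) and longest ranges had TMM medians of 0.30 (414 genes), 0.31 (526 genes) and 0.21 (2913 genes). Each of these lay above the median of all genes, and the members lay at or below them, at 0.29, 0.21 and 0.15. The members thus did not stand above other genes of like coding length. Rplp0, at 951 bases, and Rpl26, at 435 bases, lay far from this relation.

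Counts of short against long members within a library show the same without any scaling. The summed counts of the 37 members below the median coding length, divided by those of the 37 others, gave 0.700, 0.702 and 0.700 in the WT libraries and 0.775, 0.771 and 0.766 in the Dab2-cKO libraries. The groups were narrow and apart. When loess offsets for coding length were fitted per library, an alternative chosen after seeing the data, 14 members were higher and 13 lower (edgeR's quasi-likelihood test), beside 14.6% and 13.5% of all genes, and the median of the members was 0.01 beside -0.08 over all genes. Rplp0 (1.12), Rpl39 (0.39), Rps29 (0.39), Rps24 (0.36), Rps27 (0.29) and Rpl26 (-0.71) kept their calls in that fit. Fragment length and RNA quality were not measured here, and their part in the relation was not tested.

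**Figure D4:**
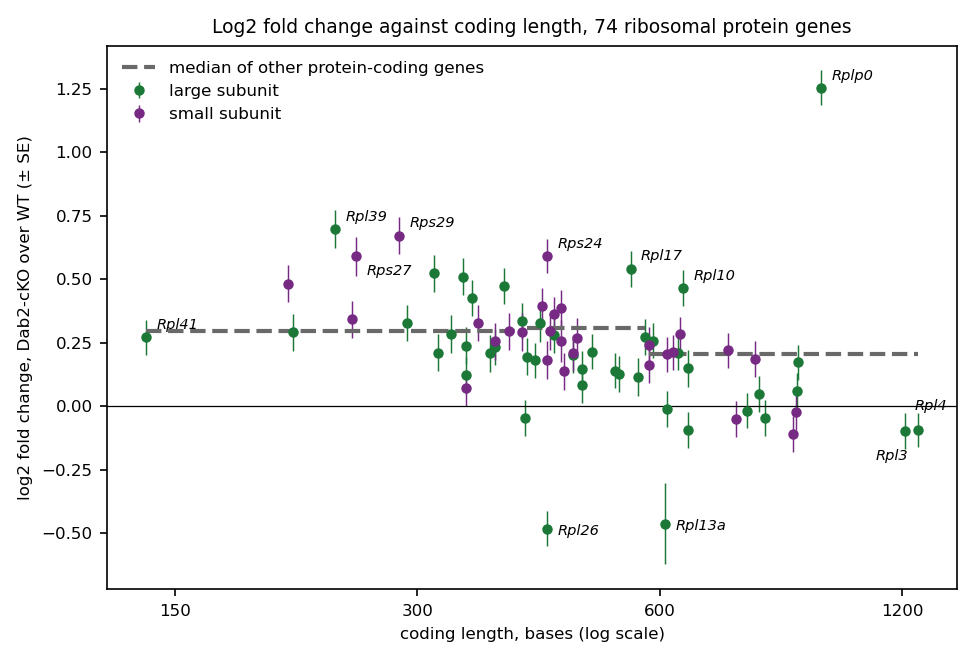
Log2 ratio of Dab2-cKO to WT under TMM (y axis, bars ± standard error) against coding length in bases (x axis, log scale) for 74 usual ribosomal protein genes of the large (green) and small (purple) subunit. Dashed lines are the medians of other protein-coding genes over the ranges of the shortest, middle and longest members. Values fall from about the level of other short genes to below 0 for the longest members, with Rplp0 above and Rpl26 and Rpl13a below the rest; under library size alone all values are lower.

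Levels of different members can be compared only per length. Per kb of exon (all annotated exons joined), the highest members by the mean of all 6 libraries were Rplp1, at 9592 ± 1440 normalized counts per kb in the WT libraries (SD, n = 3) and 13666 ± 343 in the Dab2-cKO libraries, Rps23, a protein of the decoding centre, at 2692 ± 155 and 3541 ± 111, and Rpl8, near the peptidyl transferase centre, at 3040 ± 243 and 3002 ± 50.8. Rpl8 was above Rps23 in the WT libraries by less than the sum of their SDs, and below Rps23 and Rpl41 in the Dab2-cKO libraries. By the same mean, among members that averaged 100 or more normalized counts, the lowest were Rpl13a at 52.2 ± 4.43 and 37.8 ± 1.1, Rpl3l at 71.5 ± 15.6 and 241 ± 30.1, and Rps27l at 134 ± 11.7 and 176 ± 21.1 normalized counts per kb. In the Dab2-cKO libraries alone Rpl37a, at 187 ± 12 (SD, n = 3), lay below Rpl3l. The exon union counts bases of unspliced variants, so per kb of the canonical transcript the order below Rplp1 changed, with Rps23 at rank 5 and Rpl8 at rank 15. On that length the 74 usual members had a median of 2148 normalized counts per kb, and 50 of them lay within 2-fold of it. Reads on 1970 chemosensory receptor genes were taken as a low level for comparison, and whether skin uses any of them was not tested. Their 95th percentile was 13.4 normalized counts per kb of exon, and Rps10, Rpl10l and Rpl24 lay at or under it. Per kb of the canonical transcript this percentile was 15.3, and only Rpl10l and Rpl24 lay at or under it.

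Some ribosomal components carry symbols outside the rule. Fau, whose product holds the small subunit protein eS30, had 1661, 1824 and 1788 normalized counts in the WT libraries and 2327, 2480 and 2236 in the Dab2-cKO libraries. It was higher by 0.42 (SE 0.07, adjusted p = 1e-06 by edgeR), and -0.01 under library size alone. Rps3a1, a small subunit protein whose symbol falls outside the rule, had a log2 fold change of 0.15 (edgeR's adjusted p = 0.106) and was called without WT replicate 2 (0.18, edgeR's adjusted p = 0.016). Rack1, a scaffold on the 40S head, had a log2 fold change of 0.04 (edgeR's adjusted p = 0.747). Of the 4 tested paralogs outside the rule, 1 was called higher. It was Rps27rt, a single-exon copy of Rps27 whose reads the counting could have exchanged with those of its parent, at 95.8, 133 and 120 normalized counts in the WT libraries and 213, 203 and 169 in the Dab2-cKO libraries. Its log2 fold change was 0.74 (adjusted p = 1.94e-05 by edgeR), and 0.32 under library size alone, where it did not pass (edgeR's adjusted p = 0.0679). Rpl22l1, Rpl36al and Rpl7l1 did not pass the test, and Rpl7l1 was called lower without Dab2-cKO replicate 3 (-0.27, edgeR's adjusted p = 0.0273).

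Ribosomal protein genes have many processed copies, whose reads can be exchanged with those of the parent. Of the 291 pseudogenes named for them, 102 passed the filter. Under TMM 14 were higher and 1 lower with a median log2 fold change of 0.00, beside 16.8% and 11.5% of all genes. Under library size alone 3 were higher and 18 lower with a median of -0.42, beside 8.35% and 34.7%. Rpl3-ps1 alone held 23.0% of the pseudogene counts, at 1231 normalized counts in the WT libraries and 1178 in the Dab2-cKO libraries, which is 46.7% of the counts of Rpl3. With the pseudogene counts added to the parents, 49 members were higher and 2 lower, beside 16.8% and 11.4% of all genes.

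The machinery around the ribosome did not move like its proteins. Over all genes tested, 16.8% were called higher and 11.5% lower under TMM, and 8.35% and 34.7% under library size alone. Among 103 tested genes of ribosome biogenesis, 59 were lower, 7 higher and 37 not called under TMM (median log2 fold change -0.35), and under library size alone 93 were lower and 0 higher by edgeR (1 higher at an unadjusted p under 0.05, and 6 by DESeq2 with its own size factors). Nop56, a core protein of the box C/D particles that guide methylation of rRNA, had 619, 751 and 617 normalized counts in the WT libraries and 318, 356 and 288 in the Dab2-cKO libraries, a log2 fold change of -1.05 (SE 0.09, adjusted p = 1.36e-15 by edgeR). Sbds, which releases Eif6 from new 60S subunits, was the largest rise, by 0.63 (edgeR's adjusted p = 6.37e-07), and 0.20 under library size alone, where it did not pass (edgeR's adjusted p = 0.0986).

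Among 47 translation factors, 28 were lower, 6 higher and 13 not called under TMM (median -0.30), beside 11.5% lower and 16.8% higher of all genes. Eif2b3, a subunit of the exchange factor that recharges eIF2, had 375, 454 and 363 normalized counts in the WT libraries and 125, 173 and 217 in the Dab2-cKO libraries, a log2 fold change of -1.22 (SE 0.13, adjusted p = 2.06e-12 by edgeR). Eif1, which guards the choice of the start codon, was higher by 0.54 (edgeR's adjusted p = 4.95e-09), and 0.11 under library size alone (edgeR's adjusted p = 0.132). Of 21 other genes with TOP mRNAs, which share 13 genes with the translation factors, 5 were higher and 6 lower under TMM. Under library size alone 1 was higher and 17 lower, beside 8.35% and 34.7% of all genes. Tpt1 was higher by 0.61 (edgeR's adjusted p = 2.55e-12) and Pabpc1, the cytoplasmic poly(A) binding protein, lower by -0.67 (edgeR's adjusted p = 2.7e-13).

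Of 17 genes of RNA polymerase I and its factors, 3 were higher and 6 lower under TMM (median -0.06), beside 16.8% and 11.5% of all genes. This polymerase transcribes the rRNA precursor. Taf1d, a subunit of its selectivity factor, had 1554, 1648 and 1626 normalized counts in the WT libraries and 561, 530 and 543 in the Dab2-cKO libraries, a log2 fold change of -1.56 (edgeR's adjusted p = 4.67e-29). Polr2k, a subunit shared by the nuclear RNA polymerases, was higher by 0.72 (edgeR's adjusted p = 0.000156), and 0.29 under library size alone (edgeR's adjusted p = 0.133). Of 28 regulators of translation, 7 were higher and 6 lower under TMM, beside the same shares of all genes. They were led by Eif2ak2, the kinase PKR that is induced by interferon, at 2.16 (edgeR's adjusted p = 2.84e-31), and Pdcd4, an inhibitor of Eif4a, at -0.79 (edgeR's adjusted p = 1.55e-15). Of 12 tested host genes of snoRNAs, 2 were higher and 4 lower, beside the same shares of all genes. Snhg17 fell by 0.57 on the log2 scale (edgeR's adjusted p = 0.000272).

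The mitochondrial ribosome, built from other genes, was nearer to the cytosolic one by its median. Of its 78 genes, 15 were higher, 4 lower and 59 not called under TMM (median 0.13), beside 16.8% higher and 11.5% lower of all genes. Under library size alone 2 were higher and 35 lower, beside 8.35% and 34.7%. Mrpl42 had 243, 255 and 251 normalized counts in the WT libraries and 472, 438 and 517 in the Dab2-cKO libraries, a log2 fold change of 0.93 (edgeR's adjusted p = 2.1e-12), and Mrpl19 was lower by -0.63 (edgeR's adjusted p = 0.00117).

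**Figure D5:**
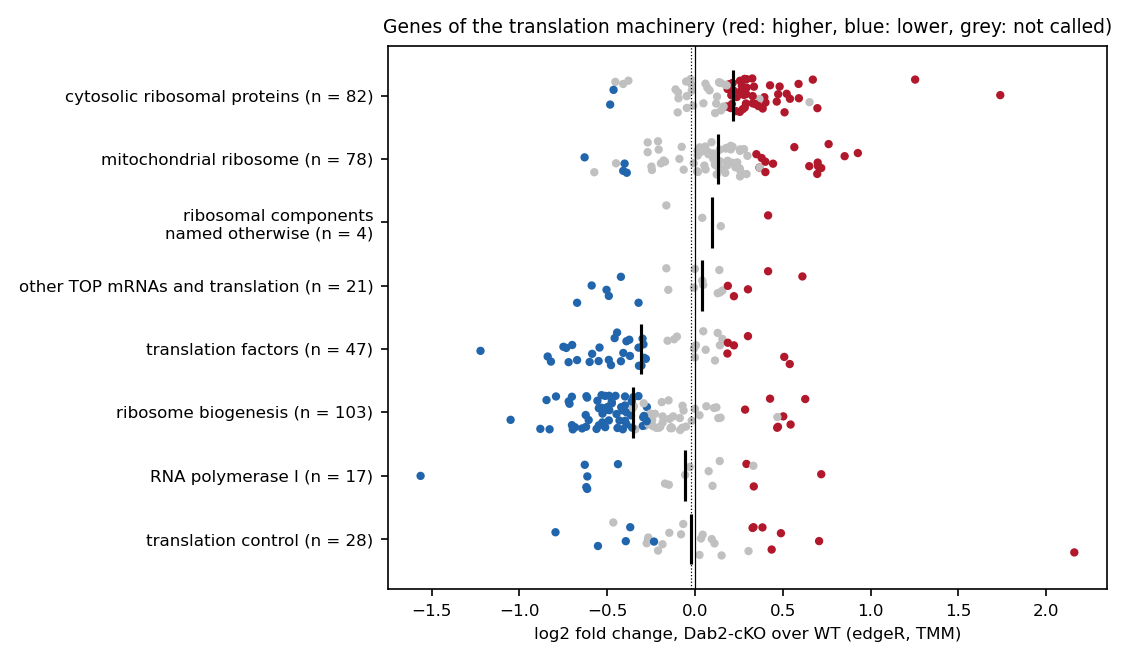
Log2 ratio of Dab2-cKO to WT under TMM (x axis) of each tested gene in the lists of the translation machinery (rows, with n genes each and vertical spread for legibility only). Red points are higher and blue points lower at adjusted p under 0.05, grey points are not called, black bars are medians and the dotted line is the median of all genes tested. The median is 0.22 for the cytosolic ribosomal proteins and -0.35 for ribosome biogenesis; under library size alone every median in the plot is lower by about the shift of all genes and that of the cytosolic ribosomal proteins turns to -0.21.

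Markers of cell types differed between the labelled groups as well. Of 13 markers of hair matrix, shaft and inner root sheath, 13 were lower in Dab2-cKO, with summed normalized counts of 230916 to 277210 in WT and 3264 to 3306 in Dab2-cKO. Of 14 markers of proliferation, 14 were lower, at 11605 to 12621 against 3632 to 3771, and of 4 markers of melanocytes, 4 were lower, at 2195 to 2414 against 668 to 742. The HFSC bulge markers had 8 higher and 4 lower of 13, at 22086 to 25236 against 36871 to 37670, and those of differentiated epidermis 4 higher and 1 lower of 5, at 8862 to 10365 against 36979 to 37515. Markers of fibroblasts were higher in 6 of 6 genes (101493 to 122727 against 353980 to 373641), of endothelial cells in 4 of 4 (940 to 1068 against 3482 to 3573), of immune cells in 4 of 5 (1363 to 1573 against 6701 to 7021) and of erythrocytes in 3 of 3 (204 to 226 against 1266 to 1340). None of these markers was at 0 in any library, and their part in the changes of the ribosomal protein genes was not tested.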

How the data were processed

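The authors trimmed the paired-end reads with fastp 0.23.4, aligned them to GRCm39 with HISAT2 2.2.1 and counted them per gene with featureCounts 2.0.6, and the deposited counts are not normalized. The annotation release, the strand setting and how multi-mapping reads were treated are not given in the sources used here. A deposited table with the authors' own DESeq2 comparison (fold changes, p-values and normalized values) was not used. Samples were grouped by their labels, the columns named FL-FL were taken as Dab2-cKO from the series title, and no library was left out. Of 56941 genes, 6770 had no symbol.

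Counts were filtered, TMM-normalized and compared by the quasi-likelihood test of edgeR 4.0.16 (R 4.3.3) with robust dispersion and Benjamini-Hochberg adjustment over 32149 genes, called at an adjusted p under 0.05. The fit was tested on simulated data. With 3 counts as the limit of a count of 0 (counting error only), the detectable share of a library was 2.56e-05% to 4.26e-05%. No libraries agreed within sampling noise. Coordinates, lengths and overlaps came from GENCODE vM39 of GRCm39, in which 56323 gene IDs matched.

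The members and lists were chosen with earlier results of these data known, so no p-value over a list is given. Named were members fixed by role and paralog pairs, the 5 largest rises and falls among called members that averaged 100 or more normalized counts and did not overlap between genotypes, the 3 highest and 3 lowest levels per kb, and in each list of the translation machinery the largest rise and fall by the same rule. Other genes were named after their values were seen only where a count of 5 or fewer needed them. Alternatives were DESeq2 1.42.0, other scalings, filters, length and GC offsets, a replicate block, added pseudogene counts, a test against a 1.5-fold change and each library left out. Offsets for coding length and the canonical transcript length were chosen after seeing the data. The values of 2 members and of 1 other ribosomal gene are not reported here.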

Additional observations from a re-analysis of the deposited data

How the results depend on the processing

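Direction and number of the calls depended on the scaling more than on any library. Members called higher (50) numbered 24 under upper-quartile scaling, 6 under library size alone, 16 when scaled to the members' sum, 14 with coding-length offsets and 2 by the test against a 1.5-fold change. Members called lower (2) numbered 12, 51, 16, 13 and 0 in the same order, 6 with TMM factors from protein-coding genes, 7 when genes needed a mean count of 50 and 1 by DESeq2. The median log2 fold change (0.22) was 0.074 under upper-quartile scaling, -0.21 under library size, 0.14 with TMM from protein-coding genes, 0.00080 scaled to the members' sum, 0.13 when a mean count of 50 was required and 0.011 with coding-length offsets. With each library left out, 36 to 58 members were higher and 1 to 3 lower (1 without WT replicate 2 and 3 without WT replicate 1), and the median was 0.18 to 0.28. Without mitochondrial and rRNA counts the members' share was 2.80% in WT and 2.65% in Dab2-cKO.

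Under library size alone the log2 fold change reversed for Rplp2 (-0.19), Rpl12 (-0.21), Rpl5 (-0.25), Rpl11 (-0.30), Rps27a (-0.22), Rps19 (-0.14), Rps20 (-0.10), Rpl38 (-0.14), Rpl27a (-0.15), Rps27l (-0.028), Rps4x (-0.24), Rps23 (-0.032), Fau (-0.010), Rack1 (-0.38) and Rps3a1 (-0.28). Scaled to the members' sum it reversed for Rpl12 (-0.0033), Rpl5 (-0.041), Rpl11 (-0.091), Rps27a (-0.0065), Rps4x (-0.031), Rack1 (-0.17) and Rps3a1 (-0.069), and with coding-length offsets for Rplp2 (-0.017), Rpl12 (-0.00096), Rpl11 (-0.082), Rps27a (-0.010), Rpl38 (-0.040), Rack1 (-0.088) and Rps3a1 (-0.0029). Upper-quartile scaling reversed Rpl11 (-0.018) and Rack1 (-0.10), and the log2 fold change of Rack1 was also below 0 with TMM from protein-coding genes (-0.039), a required mean count of 50 (-0.043) and offsets for exon length and GC (-0.031). Leaving out single libraries gave -0.10 to 0.046 for Rpsa, -0.12 to 0.034 for Rps6, -0.072 to 0.045 for Rpl8, -0.18 to 0.12 for Rps4l and -0.021 to 0.11 for Rack1.

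In the lists, translation factors higher numbered 2 under upper-quartile scaling and 0 under library size, and lower 44 under library size. Ribosome biogenesis had 0 higher and 93 lower under library size. RNA polymerase I had 1 higher by DESeq2, 1 under upper-quartile scaling and 0 under library size, with 10 lower. The mitochondrial ribosome had 9 higher and 11 lower under upper-quartile scaling and 2 and 35 under library size. Translation control had 1 higher under library size, and 11 lower under upper-quartile scaling and 18 under library size. Of all genes, 13.3% were higher and 17.3% lower under upper-quartile scaling, 8.35% and 34.7% under library size, and 16.0% and 9.79% by DESeq2. The cause was not tested, beyond the scaling itself.

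The replicate numbers did not pair the libraries, with correlations of 0.14, -0.05 and 0.10 between same-numbered libraries, and not every library correlated best with its own number. The replicate block gave 49 members higher and 2 lower and moved Rps4l to 0.011. Rpl24, Rps10, Rpl10l and Rpl39l had 3 to 50 counts per library, which limits the precision of their values.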
